A study of Caenorhabditis elegans with 2 samples.

Results

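MicroRNA (miRNA) genes of Caenorhabditis elegans were examined for binding of the protein of Y105C5A.15. They were taken as every gene of the miRNA biotype in the Ensembl annotation of WBcel235, which is the ce11 assembly of the deposited lists. The annotation holds 261 of them among 46890 nuclear genes. A miRNA gene was called bound when a summit of the authors' main list lay between 1000 bases upstream and 200 bases downstream of its annotated start. A summit is the position of the highest signal within a peak. By this rule 7 miRNA genes were bound: mir-51, mir-52, mir-80, mir-238, mir-356.1, mir-356.2 and mir-4936.

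The data are chromatin immunoprecipitation with sequencing (ChIP-seq) from 1 group of whole L4 larvae aged 48 hours, in 2 biological replicates. The worms of strain OP773 carried the transgene wgIs773, in which Y105C5A.15 is fused to TY1, EGFP and 3xFLAG tags, together with unc-119(+) as a rescue in the unc-119(tm4063) background. Cultures were started from L1 larvae starved after bleaching, chromatin was sheared by sonication, and the tagged protein was precipitated with an antibody against GFP. A strain without the tagged protein, or an input library as a sample of its own, was not analysed here, so signal of the antibody without the tagged protein cannot be told apart from binding. Each sample was made from whole animals, so a site bound in a small number of cells and a site bound weakly in many cannot be told apart. The level of a miRNA was not measured in these samples.

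A miRNA is cut from a hairpin in a longer primary transcript, first by the Drosha complex in the nucleus and then by Dicer in the cytoplasm. An Argonaute protein then carries the mature strand to messenger RNAs that pair with its seed, the bases near the 5′ end, and those messages are repressed or destroyed. The worm is the animal in which miRNAs were discovered, through lin-4 and let-7, which time the succession of larval stages. Intronic miRNAs can be made from the transcript of their host gene, whereas intergenic ones need a promoter of their own, and neighbouring hairpins can share a primary transcript.

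The annotated start of a miRNA gene is in most cases the start of the hairpin. Of the 261 genes, 253 had the same first and last base as the RefSeq hairpin, and 3 genes were longer than 200 bases. Distances are therefore given from the annotated start, which need not be the start of transcription. Sequences were read from the RefSeq genome of WBcel235 and its annotation, in which all 261 genes had a hairpin and 260 had at least 1 mature arm.

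The mature strands of the bound genes show which seeds were represented. Capitals mark the seed, bases 2 to 8, and each strand is named by its arm of the hairpin (5p or 3p). The strand of mir-56, whose gene had a summit in the authors' conservative list alone, is added to compare its seed with those of mir-51 and mir-52.
mir-51 5p: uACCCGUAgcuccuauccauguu
mir-52 5p: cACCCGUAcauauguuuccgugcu
mir-56 3p: uACCCGUAauguuuccgcugag
mir-80 3p: uGAGAUCAuuaguugaaagccga
mir-238 3p: uUUGUACUccgaugccauucaga
mir-356.1 5p: uUGAGCAAcgcgaacaaauca
mir-356.2 3p: uUUGUUCGcguugcucaaccaca
mir-4936 3p: uGCUUUGUggcuuugcuggua

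The seed ACCCGUA was shared by 6 genes, mir-51 to mir-56, of which 2 were bound. GAGAUCA was shared by 6 genes, of which mir-80 was the bound one, and UUGUACU by mir-238, mir-239.1 and mir-239.2. UGAGCAA of mir-356.1 was also the seed of mir-87 and mir-233. The seed printed for mir-4936 and that printed for mir-356.2 were found in no other gene. On the strands printed, the 7 bound genes carried 6 different seeds.

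Of the bound peaks, the 101 bases around the summit are printed for mir-51 and mir-4936, which held a word of tRNA-like sequence, and for mir-52 and mir-238, which did not. All are on the plus strand of ce11. Capitals mark the longest run of the words searched, which are spelled out further on.
mir-51, chrIV:11026109-11026209: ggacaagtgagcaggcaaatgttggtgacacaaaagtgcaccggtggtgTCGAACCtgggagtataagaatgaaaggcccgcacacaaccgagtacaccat
mir-4936, chrIII:3249196-3249296: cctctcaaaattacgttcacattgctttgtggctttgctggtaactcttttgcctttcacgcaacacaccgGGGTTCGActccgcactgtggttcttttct
mir-52, chrIV:14033135-14033235: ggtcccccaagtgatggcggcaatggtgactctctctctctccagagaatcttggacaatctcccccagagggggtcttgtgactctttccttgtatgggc
mir-238, chrIII:8867594-8867694: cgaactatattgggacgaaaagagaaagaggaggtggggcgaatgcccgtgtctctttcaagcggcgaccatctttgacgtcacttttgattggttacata

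The share of miRNA genes with a summit was close to that over all annotated nuclear genes. It was 2.68% (7 of 261, 95% exact interval 1.08 to 5.45%), against 2.57% of all annotated nuclear genes, 1.94% of protein-coding genes and 4.17% of ncRNA, lincRNA and antisense RNA genes. The share over all genes is lowered by 15363 piRNA genes, of which 0.456% had a summit. The miRNA share lay between those of the coding genes and of these noncoding genes. The 7 genes are thus not a result about miRNA genes as a class. In the conservative list 6 of 261 had a summit (2.30%, background 2.21%). In the list of replicate 1 alone 1 gene had one, mir-51 (0.383%, background 1.07%), and in that of replicate 2 alone 2 genes, mir-52 and mir-4936 (0.766%, background 1.03%). The replicate lists held 350 and 329 peaks against 1046 in the main list, and they shared no bound miRNA gene. With 1 and 2 bound genes this says little about agreement, and the overlap over all genes was not counted.

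**Figure D1:**
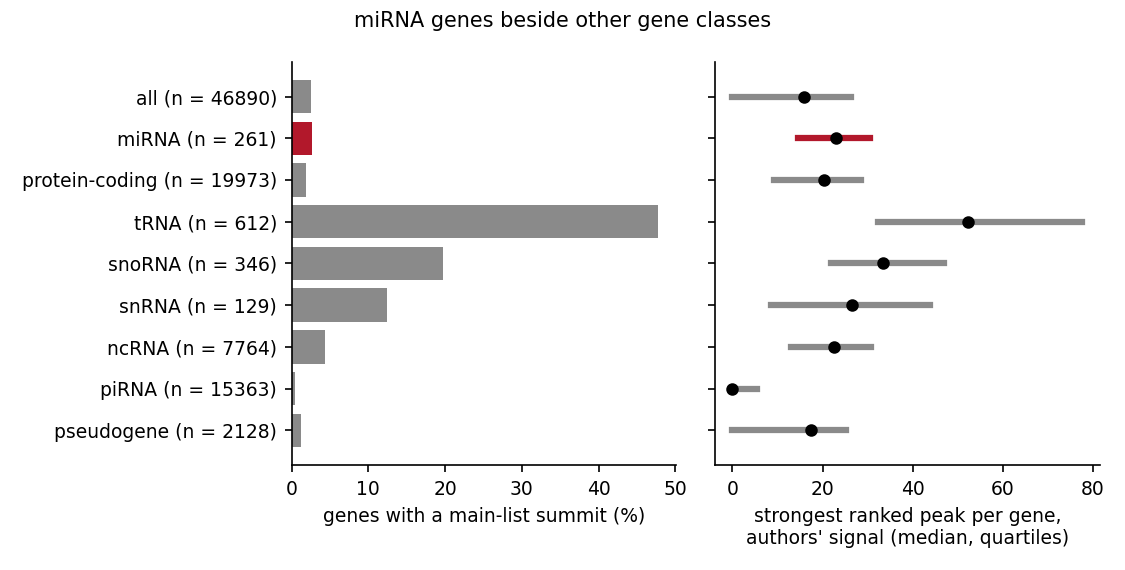
Left, percent of genes of each class with a main-list summit in the window; right, the authors' signal of the strongest ranked peak in the window, with the median as a dot and the quartiles as a line (genes without a peak count as 0). The bar of miRNA genes (2.68%) is near that of all genes (2.57%) and far below that of tRNA genes (47.7%).

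A weaker measure was the strongest peak of the ranked list, which holds 103220 peaks of any reproducibility. Such a peak overlapped the window of 223 miRNA genes (85.4%) against 61.4% of all genes, a background that includes 15363 piRNA genes at 25.6%; protein-coding genes stood at 78.2% and ncRNA genes at 81.2%. Signal here is the authors' value per peak from their caller, whose scale no source used here gives, and values of different lists are not on a shared scale. The median over miRNA genes, with 0 where no peak overlapped, was 23.0 (quartiles 14.5 and 30.5). Protein-coding genes had a median of 20.2, ncRNA genes 22.5, snRNA genes 26.6, snoRNA genes 33.4 and tRNA genes 52.2. In the plot of gene classes the miRNA genes lay beside ncRNA and coding genes rather than beside tRNA and snoRNA genes. The median over miRNA genes was 11.0 in the ranked list of replicate 1 and 12.4 in that of replicate 2.

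The peaks at bound miRNA genes were spread over the main list by signal, with more of them below its median than above. There were 7 distinct peaks, since mir-80 had 2 and the mir-356 pair shared 1. Their signals ran from 51.2 to 85.3 with a median of 56.4, whereas the whole main list had a median of 63.5 and quartiles of 55.3 and 81.4. The peaks of mir-80 and the mir-356 pair were below the lower quartile, and those of mir-51 and mir-52 above the upper. No gene for a tRNA, rRNA, snoRNA or snRNA was annotated within 100 bases of any of the 7 summits, while 311 of the 1046 main peaks had one. None of the 7 peaks had a near-identical copy elsewhere in the genome (90% identity over 80% of the peak), while 11.3% of main peaks did. Over 7 peaks these absences say little.

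**Figure D2:**
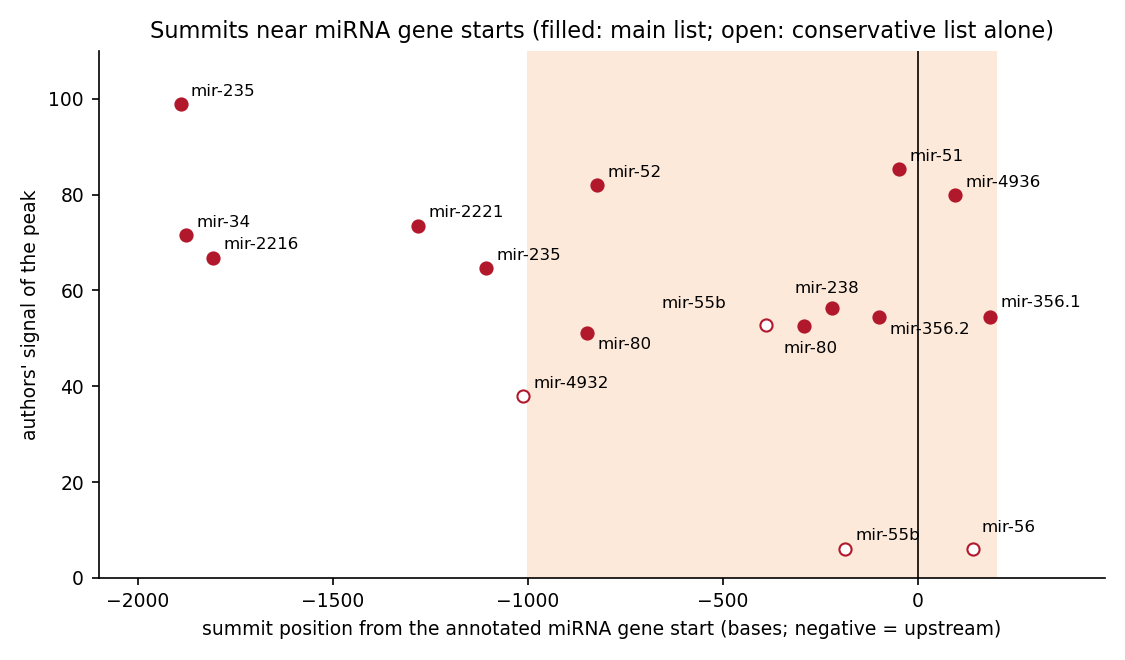
Position of each summit from the annotated miRNA gene start in bases (x) against the authors' signal of the peak (y); the shaded band is the window of 1000 upstream to 200 downstream. Filled points are in the main list and open points in the conservative list alone; the 8 filled points in the band run from 823 or 847 bases upstream (mir-52, mir-80) to 186 downstream (mir-356.1).

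The highest signal at a miRNA gene was at mir-51 (IV, 11026013 to 11026112, minus strand, intergenic), a member of the mir-51 family, which is needed for embryonic development. Its peak (chrIV:11026031-11026286) covered most of the hairpin, with the summit 47 bases upstream of the start, a signal of 85.3 and rank 231 of 1046. The irreproducible discovery rate (IDR), the expected share of peaks at this rank or better that do not repeat, was 5.64e-04. Replicate 1 gave a signal of 49.5 and replicate 2 one of 37.5 (mean 43.5 ± 8.46 SD, n = 2). Replicate 1 was the higher, and mir-51 was the one miRNA gene with a summit in the list of that replicate alone. The same summit lay 60 bases inside F36H1.17, an ncRNA gene of unknown function on the same strand (IV, 11026131 to 11026219), so the peak covered both genes. The neighbour mir-53, whose start is 1579 bases away on the same strand, had no summit, and its strongest ranked peak had a signal of 13.8.

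The peak in the window of mir-52 (IV, 14034008 to 14034107, plus strand, intergenic), of the same family and seed, was at chrIV:14033057-14033312, 823 bases upstream. It had a signal of 82.0, rank 255 and an IDR of 7.06e-04. Replicate 1 gave 37.0 and replicate 2 gave 45.8 (mean 41.4 ± 6.26 SD, n = 2). Here replicate 2 was the higher. mir-52 was not the nearest start, since 6 ncRNA genes and a piRNA gene started closer to the summit; the nearest, the ncRNA gene WBGene00201963 on the opposite strand, started 14 bases from it. Binding at mir-52 can therefore not be told apart from binding at this group of ncRNA genes.

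The peak at mir-4936 (III, 3249151 to 3249260, plus strand, intergenic), for which no function is given here, was centred inside the gene, 95 bases past its start. The peak chrIII:3249118-3249373 had a signal of 79.8, rank 277 and an IDR of 7.88e-04. Replicate 1 gave 33.3 and replicate 2 gave 45.2 (mean 39.3 ± 8.48 SD, n = 2). As at mir-52, replicate 2 was the higher and its own list held the peak. The summit also lay in the window of nduf-9, which codes for a subunit of respiratory complex I, 671 bases upstream of that gene's start on the other strand.

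mir-238 (III, 8867328 to 8867425, minus strand, intergenic), a miRNA linked to adult lifespan, had the peak least shared with other genes. It lay at chrIII:8867516-8867771 with the summit 219 bases upstream, a signal of 56.4, rank 747 and an IDR of 2.42e-03. The replicate peaks on it had signals of 25.1 and 28.0 (mean 26.6 ± 2.00 SD, n = 2). The replicates were closest to each other here among the 7 peaks, and no other gene started within 1000 bases of the summit. A further ranked peak 698 bases upstream had a signal of 55.6 with an IDR of 0.0144, just past the limit of 0.01, and gave the strongest value in replicate 1, 27.4.

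mir-80 (III, 8865270 to 8865367, minus strand, intergenic), of the bantam-related mir-58 family, had 2 summits in its window. The nearer, 290 bases upstream, had a signal of 52.6, rank 864 and an IDR of 4.86e-03, with 35.5 in replicate 1 and 27.0 in the other (mean 31.3 ± 5.98 SD, n = 2). The farther, 847 bases upstream, had 51.2, rank 907 and an IDR of 8.49e-03, with 29.6 and 19.7 (mean 24.7 ± 7.04 SD, n = 2). Replicate 1 was the higher at both. The replicate 2 peak of 27.0 overlaps the nearer main peak, but its summit lay 208 bases from that of the main peak. The other start near them was that of K01F9.6, an ncRNA gene annotated over the mir-80 hairpin on the opposite strand. In the conservative list mir-80 had no summit.

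The mir-356 genes overlap on opposite strands: mir-356.1 (III, 7860147 to 7860256) on the plus and mir-356.2 (III, 7860167 to 7860234) on the minus strand. They shared the peak chrIII:7860205-7860460, with a signal of 54.4, rank 811 and an IDR of 9.93e-03, the closest of the 7 to the limit. Replicate 1 gave 22.0 and replicate 2 gave 28.3 (mean 25.2 ± 4.46 SD, n = 2). The summit was 99 bases upstream of mir-356.2 and 186 bases into the window past the start of mir-356.1, which is 14 bases inside the window's end. It also lay 655 bases upstream of the ncRNA gene ZK652.14, while the coding genes cuc-1 (a copper chaperone) and tomm-7 (a subunit of the mitochondrial import channel) started 652 and 720 bases away, with the summit downstream of their starts. mir-356.1 overlaps the end of an exon of tomm-7.

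**Figure D3:**
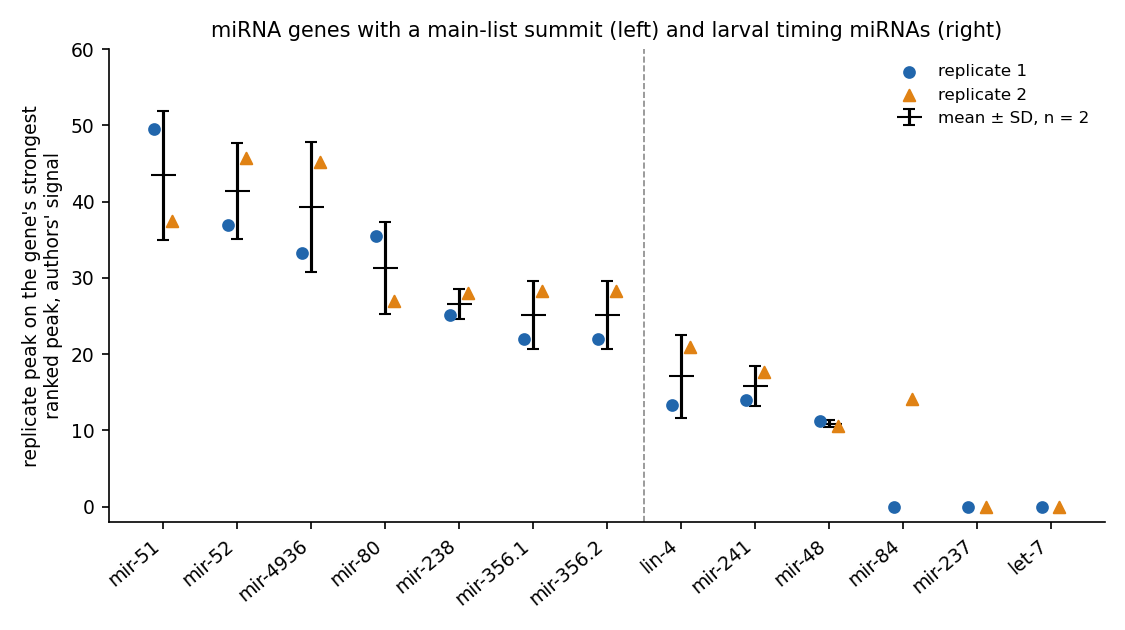
Authors' signal of the replicate peak that overlaps the gene's strongest peak in the ranked list over both, in replicate 1 (circles) and replicate 2 (triangles), with the mean ± SD (n = 2), for the 7 bound miRNA genes and the 6 larval timing miRNAs; points at 0 have no overlapping peak, and then no mean is drawn. The bound genes span 22.0 to 49.5, and the timing miRNAs with peaks span 10.6 to 21.0, a split that follows from how the bound genes were chosen.

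Over the 7 bound genes the strongest replicate values in the window had medians of 33.3 in replicate 1 and 28.3 in replicate 2. By printed value 5 genes were higher in replicate 2, of which the mir-356 pair is 1 shared peak. The replicate lists are not on a shared scale, so the higher value at a gene does not show stronger binding in that replicate. All 7 had a ranked peak on the main peak in both replicates. In 5 of the 7 the miRNA was the nearest start of any gene: mir-51, mir-80, mir-238, mir-356.2 and mir-4936.

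The main and conservative lists shared 4 bound miRNA genes (mir-51, mir-52, mir-238 and mir-4936), which are 4 of the 7 in the main and 4 of the 6 in the conservative list. The overlap over all genes was not counted, so these shares cannot be compared with those of genes in general. The other 2 of the conservative list, mir-55b and mir-56, lie on X inside an intron of the coding gene F09A5.3. mir-55b (X, 13144830 to 13144919) had summits 389 and 186 bases upstream with signals of 52.8 and 6.12. mir-56 (X, 13144691 to 13144787, opposite strand) had the second of these, 143 bases past its start. The replicate peaks overlapping them had signals of 27.0 in replicate 1 and 26.3 in replicate 2. The peaks lay at the mir-56 end of a group of 4 miRNA genes, mir-54, mir-55, mir-55b and mir-56. Both summits fell outside the hairpins, past the end of mir-56, and neither peak was in the main list.

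Some summits lay just outside the window. The closest of the main list was at mir-235 on I, a miRNA that holds blast cells quiescent in starved larvae, 1107 bases upstream with a signal of 64.6. A further summit 1890 bases upstream of mir-235 had 98.9, and both lay at tRNA genes, T09B4.t2 and T09B4.t1. Further summits were 1280 bases upstream of mir-2221 (73.5), 1807 upstream of mir-2216 (66.8) and 1877 upstream of mir-34, a stress-related miRNA (71.5). That of mir-2216 was nearer to cap-2, which codes for a subunit of actin capping protein. In the conservative list a summit with 37.9 lay 1011 bases upstream of mir-4932. A window of 2000 bases upstream took up 11 miRNA genes (background 3.37%), and one of 500 upstream to 100 downstream kept 5 (background 1.81%), losing mir-52 and mir-356.1.

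By place, 6 of the 152 intergenic miRNA genes were bound (3.95%, exact interval 1.46 to 8.39%) and 0 of the 97 intronic ones (upper bound of the exact interval 3.73%). The share over all annotated nuclear genes, 2.57%, lies inside both intervals, so neither count sets a place apart from genes in general. Of the intronic genes 67 were on the strand of the host and 30 on the other. The remaining 12 overlap an exon, and 1 of them, mir-356.1, was bound. The intervals of intergenic and intronic genes overlap. In the conservative list 2 intronic genes were bound (2.06%) beside 4 intergenic ones (2.63%), with 2.21% over all genes. When genes of any biotype other than piRNA and miRNA counted as hosts, 4 of 116 intergenic and 0 of 95 intronic genes had a main summit. The ranked signal was not ordered like these counts: its median was 21.2 over intergenic genes, 26.7 over intronic genes on the host's strand and 21.4 over those on the opposite strand. The medians of the intronic genes, none of which was bound, were thus not below that of the intergenic genes.

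**Figure D4:**
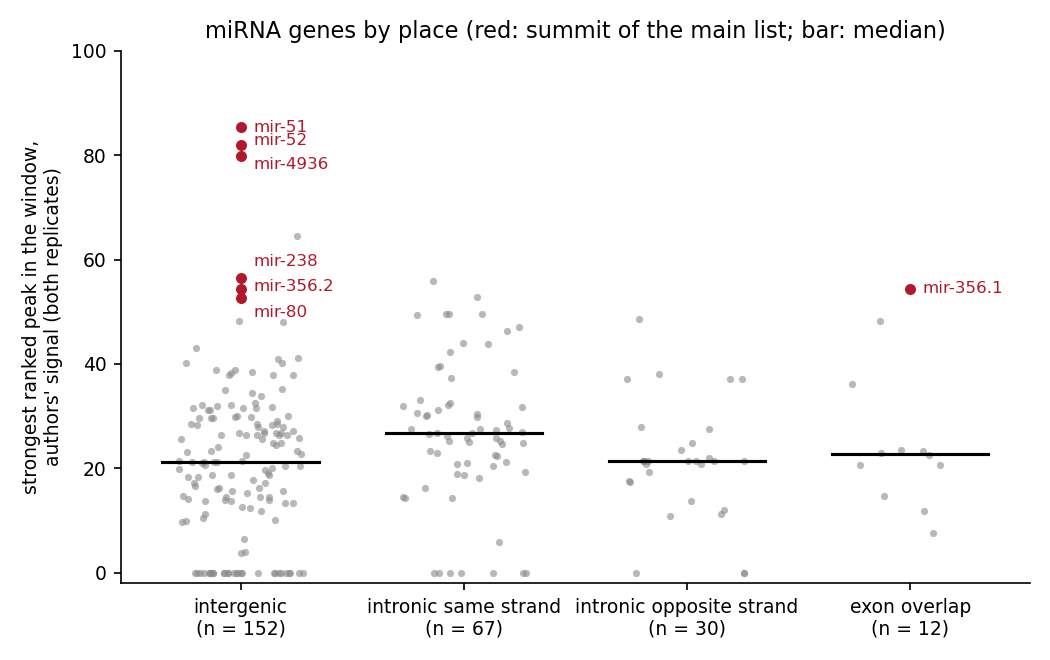
Each point is a miRNA gene, placed by its position relative to protein-coding genes (x) and by the authors' signal of the strongest peak in the ranked list over both replicates (y; 0 without a peak); bars are medians. The 7 bound genes, in red, are 6 intergenic genes and mir-356.1, and several intronic genes lie near 50 without being bound.

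The strongest miRNA genes without a main summit in the window show what lay under the call. mir-235 led with 64.6, from the peak just outside. mir-1829.3, in an intron of piki-1, had 55.9 with an IDR of 0.0219. The replicate 2 peak there had 45.1, with its summit 1 base away, and the overlapping peak of replicate 1 had 11.0, with its summit 176 bases away. mir-55b followed with 52.8 and an IDR of 0.577 in this ranked list. mir-64, mir-65 and mir-66, in an intron of gcn-1, shared a peak of 49.6 (IDR 0.0555), on which replicate 1 had a peak of 29.9 and replicate 2 had none. Replicate 2 was thus the higher at mir-1829.3, and the peak at mir-64, mir-65 and mir-66 was seen in replicate 1 alone.

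Clusters were taken as neighbouring miRNA genes of the same strand with starts up to 10000 bases apart, which gave 29 clusters with 81 genes. Of the clustered genes 3 were bound (3.70%, exact interval 0.770 to 10.4%) and of the 180 others 4 (2.22%, 0.609 to 5.59%), and these intervals overlap. The 3 were mir-80 and mir-238, which share a cluster with mir-90, and mir-51, which has mir-53 beside it. The largest cluster, of 11 genes on X, held no bound gene. By chromosome, 5 of the 27 miRNA genes on III (18.5%, exact interval 6.30 to 38.1%) and 2 of the 50 on IV (exact interval 0.488 to 13.7%) were bound beside 2.57% of all genes, and none of the 33 on I, 49 on II, 28 on V and 74 on X. In the conservative list 2 of the 27 on III (7.41%), 2 of the 50 on IV and 2 of the 74 on X were bound, beside 2.21% of all genes. The 5 genes on III rest on 5 peaks at 3 places, and the main list held 198 of its 1046 peaks on III. The mir-356 pair, over 1 peak, counts as 2 genes in the interval. The share of all genes on each chromosome was not counted, and 2.57% pools all chromosomes. The counts therefore do not show that miRNA genes on III differ from other genes on III.

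The stretch around mir-80 and mir-238, whose starts are 2058 bases apart, held more main summits than that of any other miRNA gene. mir-80 had 4 main summits within 5000 bases of its start, while 229 of the 261 genes had 0 and 25 had 1. In 11415 bases there were 22 ranked and 4 main peaks. The strongest ranked peak there, 2205 bases downstream of the mir-80 start, reached 254 at an IDR of 1e-05, with 130 in replicate 1 and 131 in replicate 2, yet it is not in the main list. A second one, 640 bases downstream, had 57.0 with an IDR of 0.00886 and is not there either. No source used here says why the thresholded list lacks them. Both lie outside the windows of the miRNA genes, and no window of a miRNA gene held a ranked peak past the limit that the main list lacked.

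**Figure D5:**
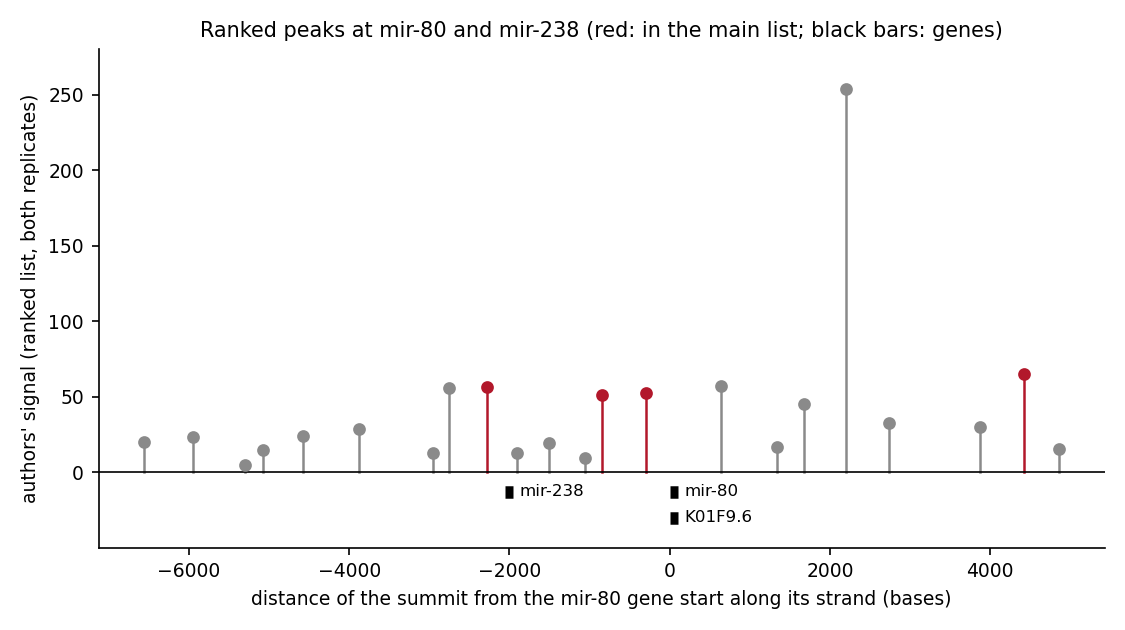
Summits of ranked peaks by distance from the mir-80 start along its strand in bases (x) and the authors' signal over both replicates (y), in red where the main list holds the peak; black bars are the genes mir-238, mir-80 and K01F9.6. The peak of 254 at 2205 bases downstream is grey, and the 3 red peaks between and upstream of the hairpins run from 51.2 to 56.4.

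None of the 6 larval timing miRNAs was bound (exact interval 0 to 45.9%, background of all genes 2.57%), in the main list or in the other lists examined. At such a background, 0 of 6 genes says little about timing miRNAs. Outside its window, mir-237 had 3 main summits within 5000 bases of its start. The mature strands of the 6 timing miRNAs carry 2 seeds. lin-4, which ends the programme of the first larval stage by repressing lin-14, shares its seed with mir-237, and let-7, which drives the passage from larva to adult, shares its seed with mir-48, mir-84 and mir-241, which act earlier through hbl-1.
lin-4 5p: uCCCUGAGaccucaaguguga
mir-237 5p: uCCCUGAGaauucucgaacagcu
let-7 5p: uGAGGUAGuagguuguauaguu
mir-48 5p: uGAGGUAGgcucaguagaugcga
mir-84 5p: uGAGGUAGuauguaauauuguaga
mir-241 5p: uGAGGUAGgugcgagaaauga

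lin-4 had the strongest ranked peak of the 6, with a signal of 32.6 and an IDR of 0.278, and 13.3 in replicate 1 and 21.0 in the other (mean 17.1 ± 5.44 SD, n = 2). mir-241 had 29.6, with 14.0 and 17.7 (mean 15.8 ± 2.63 SD, n = 2). mir-48, its neighbour, had 24.8, and the overlapping replicate peaks had 11.3 and 10.6 (mean 10.9 ± 0.487 SD, n = 2), though their summits lay 49 and 163 bases from the summit over both. The spreads of lin-4 and mir-241 overlap, and mir-48 was the lower in both replicates. mir-84 had 20.6, with 14.1 in replicate 2 and no overlapping peak in replicate 1. mir-237 had 12.4 and let-7 had 7.54, and neither had a peak in its window in the ranked list of either replicate. The median of the 6 was 22.7, beside 23.0 over all miRNA genes.

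let-7 is the gene for which the choice of start mattered most. Its annotated gene is 1732 bases long and starts 1050 bases before the hairpin. Counted from the hairpin, the window held a ranked peak with a signal of 49.1, an IDR of 0.0404 and its summit 383 bases upstream, inside the annotated gene. That peak had 26.2 in replicate 1 and 21.2 in the other (mean 23.7 ± 3.51 SD, n = 2). It did not reach the limit of 0.01, so let-7 had 0 main summits from either start. With hairpin starts for all genes the number bound was again 7.

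Of the other families, the mir-51 family had 2 of 6 members bound (33.3%, exact interval 4.33 to 77.7%, background of all genes 2.57%) and 3 in the conservative list (background 2.21%). Its members mir-54, mir-55 and mir-56 shared a ranked peak of 37.1 with an IDR of 0.0913, so the median of 37.1 over the family is in large part that of 1 peak. The mir-58 family had 1 of 8 (mir-80, median 28.0), and the remaining members lay between 25.3 and 30.3. The mir-35 family, which acts in the embryo, had 0 of 8 with a median of 21.4, and 7 of its members are 1 cluster over 1 shared ranked peak. The other let-7 family genes had 0 of 3 (median 14.2). In a list of 10 other miRNAs, such as lsy-6 and the muscle miRNA mir-1, none was bound. The highest of the 10 were mir-71 with 49.3 and mir-1 with 43.0 (IDR 0.319 and 0.0301). A median or a count over so few genes with shared peaks says little about a family.

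Coding genes of the miRNA pathway, which are not among the 261, were placed by the same rule. Of 25 genes for making, using or destroying miRNAs, 4 had one (16.0%, exact interval 4.54 to 36.1%, background of coding genes 1.94%), and 2 of the 25 did in the conservative list. The share was above the background in the main list, but the list was chosen with earlier results known and the difference was not tested. drsh-1, which codes for Drosha, and dcr-1, which codes for Dicer, had no summit.

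vig-1, which codes for a protein found with the Argonaute complex, had the highest signal, 88.7, with its summit 412 bases upstream. It gave 41.6 in replicate 1 and 48.5 in the other (mean 45.0 ± 4.90 SD, n = 2), and the nearest start was that of a piRNA gene, 21ur-13751. xrn-2, the exonuclease that degrades miRNAs released from Argonaute, had 62.1 at 56 bases past its start, with 28.9 and 33.2 (mean 31.0 ± 3.08 SD, n = 2). At xrn-2 the gene itself was the nearest start. The Argonaute gene alg-5 had 54.8 at 457 bases upstream, with 22.0 and 35.3 (mean 28.6 ± 9.40 SD, n = 2), but the histone gene his-68 started nearer and the peak had 10 near-identical copies in the genome. cgh-1, the helicase that acts in decay and storage of repressed messages, had 53.8 at 683 bases upstream, with 26.4 and 21.6 (mean 24.0 ± 3.38 SD, n = 2). Replicate 2 was the higher at vig-1, xrn-2 and alg-5, and replicate 1 at cgh-1.

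Of 18 heterochronic coding genes, the protein side of larval timing, 2 had a summit (11.1%, exact interval 1.38 to 34.7%, background of coding genes 1.94%), and none did in the conservative list. lep-2, a Makorin-family timing gene, had 2 summits, the stronger with 54.8 at 792 bases upstream and replicate values of 21.7 and 31.4 (mean 26.5 ± 6.89 SD, n = 2). nhr-25, a nuclear receptor of the molting programme, had 46.7 at 307 bases upstream, with 23.4 and 26.2 (mean 24.8 ± 1.99 SD, n = 2). The summit near nhr-25 was closer to the start of an ncRNA gene, F11C1.13. The direct targets lin-14, lin-41 and hbl-1 had no summit, and their strongest ranked peaks had signals of 47.5, 14.4 and 22.6.

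Sequence words were searched on both strands of the 101 bases around each summit. The 5 words, each 6 bases long and chosen with earlier results of these data known, overlap in part: the first and second share 5 bases, and the third overlaps the reverse strand of both. The first word, CGAACC, was in 2 of the 7 peaks at miRNA genes, those of mir-51 and mir-4936, against 15.7% of the 1046 main peaks and 4.76% of the 735 main peaks away from small RNA genes. The second, GAACCC, was in that of mir-4936 alone (12.7% of all main peaks and 3.81% of those away from small RNA genes). The third, GTTCGA, was in the same 2 as the first (17.2% and 5.99%). The fourth word, ACCACT (16.1% and 8.03%), and the fifth, written GGCCGA (9.08% and 6.67%), were in none of the 7, which says only that these letters are not in these windows.

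The first 3 words resemble the B box, a part of the internal promoter of tRNA genes that the factor TFIIIC binds. After the sequences had been seen, the longer word GTTCGANNC was searched as well. It was in the same 2 of 7 peaks, in 13.5% of main peaks, in 46.3% of the 242 main peaks within 100 bases of a tRNA gene, in 2.31% of main peaks away from small RNA genes and in 1.08% of the 103220 ranked peaks. At mir-51 the word began 4 bases from the summit and 56 bases into the 89-base ncRNA gene F36H1.17, on that gene's strand, and 51 bases upstream of the hairpin. At mir-4936 it began 23 bases from the summit on the strand of the gene, 118 bases past the gene's start and 9 bases beyond its end. Neither place is annotated as a tRNA gene, and a match is a description, not a binding site.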

How the data were processed

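The files are peak lists for each replicate and for both together, made by the authors from filtered alignments and 1 control alignment on ce11, per the deposited text records. No source used here names the peak caller or aligner. Peak signal is a value deposited by the authors, and the ranked lists hold the deposited −log10 of the IDR. Thresholded lists are parts of ranked lists with an IDR of at most 0.01. Of the thresholded lists over both replicates, the longer is called main; the conservative one is no subset of it. The lists hold no read counts, so depth is unknown, and the intervals (95%, Clopper-Pearson) cover counting error over genes only.

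Genes came from Ensembl release 115, and miRNA symbols, hairpins and mature arms from RefSeq by gene identifier. Coordinates are 1-based. The strongest peak with any base in the window gave a gene's ranked signal. Replicate values printed for a gene are those of the replicate peaks that overlap that peak, unless the window is named. A gene wholly inside a protein-coding gene and free of its exons is intronic, and one that overlaps none is intergenic. Copies were searched with BLAST 2.17.0; other steps used Python 3.11.15, NumPy 2.4.6 and SciPy 1.17.1. Window assignment was tested on simulated data. With 1 group of 2 replicates no test between conditions was possible, and none was made; gene lists are described by counts beside the background.

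The genes named are those with a summit in any list or window examined, the 6 larval timing miRNAs, the 5 miRNA genes without a summit with the highest ranked signal, members of the 8 lists with a summit, and nearest other starts. Other list members and neighbours, and mir-4932, were named after their values were seen. The miRNA genes and lists were chosen with earlier results of these data known. mir-1834, on the mir-58 family list, was not matched.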

Additional observations from a re-analysis of the deposited data

How the results depend on the processing

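The 7 bound miRNA genes became 3 with the upper 50% of the main list by signal, 11 with the window of 2000 bases upstream, and 1 to 2 with a single replicate's list. They were 5 with the narrow window or the nearest start, 6 in the conservative list, and 8 when any base of a peak counted. The share over all genes was not counted for the upper 50%, the nearest start, any base of a peak or hairpin starts. Those counts can therefore not be compared with genes in general. A single replicate gave 1 to 2 intergenic, 0 to 1 clustered and 0 to 2 unclustered bound genes, and the conservative list gave 2 intronic ones. The 3 genes of the upper part were mir-51, mir-52 and mir-4936. The median ranked signal of 23.0 was 21.4 with the summit inside the window, 20.0 in the narrow window, and 11.0 to 12.4 in a single replicate's list, which has a scale of its own. Counting from hairpin starts, an alternative chosen after seeing the data, left 7 bound and moved the ranked signal at let-7 from 7.54 to 49.1. The replicate mean at mir-238 was 27.7 over the window and 26.6 on the main peak. The cause of the moves between lists was not tested. No paired analysis was possible because there was 1 group. Unknown depth limits every absence.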
